A study of Mus musculus with 4 samples.

Results

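The suppressors of cytokine signalling Socs1, Socs2, Socs3 and Cish, the transcription factors Stat3 and Stat5a, and the interferon regulatory factors Irf1 and Irf8 were followed across the leukocytes of KPC tumours. The 8 genes were taken by symbol from the deposited feature list, and all 8 were found among its 32285 genes. Cytokine receptors signal through JAK kinases, which phosphorylate STAT proteins, and the STATs in turn switch on SOCS genes whose proteins block the same receptors and kinases. SOCS1 is best known for restraining interferon signalling, SOCS3 for restraining cytokines of the gp130 family and G-CSF, and CIS (encoded by Cish) and SOCS2 for acting on receptors that use STAT5. IRF1 is a classical product of interferon-γ signalling, and IRF8 is needed for plasmacytoid dendritic cells (pDC) and type 1 conventional dendritic cells (cDC1).

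KPC cells, a mouse pancreatic cancer line with the allele P53 LSL.R172H/+ and Pdx-Cre, were grown under the skin of male C57BL/6 mice, so that every group shared the tumour line and the host. Mice were Untreated, or received the STING agonist ADU-S100, a synthetic cyclic dinucleotide injected into the tumour, an agonistic antibody to the lymphotoxin-β receptor (LTbR agonist) given by injection into the peritoneum, or both (STING and LTbR agonist, called the combination below). No vehicle or isotype control was described for the Untreated group. The STING agonist was given at the start of treatment only, and the antibody was repeated. Tumours were collected later, on the day of resection and days after the last antibody dose. The levels are therefore not those of the hours after the STING agonist. Tumours were pooled within each group before live CD45-positive cells were sorted. The 4 groups therefore had 1 library each, and no value exists per mouse. Which of the described single-cell experiments gave these libraries is not stated.

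After the study's limits on detected genes and mitochondrial RNA, 23011 of 24839 barcodes remained, between 3748 and 7147 per library, with medians of 5750 to 7094 unique molecular identifiers (UMIs) per cell. In all, 284 barcode sequences were seen in more than 1 library and were treated as separate cells. Ptprc, which encodes CD45, had a UMI in 94.7% of cells. Each cell was assigned to a class by the share of a marker list in which it had a UMI, with none of the 8 genes among the markers, and 18690 cells (81.2%) received a name. The 14 classes described here leave out 5 classes of 3 to 24 cells in all (plasma, mast or basophil, epithelial or tumour, fibroblast and endothelial). Because the names were rebuilt from RNA they end in "-like" and are not those of the study. Among the 10 genes that led each class by fold, none was a marker of another class, and genes outside the lists matched the names (Lcn2 and Ngp in Neutrophil-like cells, Il12b in Mature DC-like cells, Il17a in Gamma-delta T-like cells, Gzma in NK-like cells). The Other T-like class holds T-like cells with none of the Cd4, Cd8, Foxp3 and γδ genes, or with Cd8 beside Cd4 or Foxp3. Foxp3 made up 66.3 to 81.1 of each 1000000 UMIs of that class over the libraries. Cells with γδ genes and only Cd4 or only Cd8 stayed in the Conventional CD4 T-like or CD8 T-like class. A level is the gene's UMIs scaled to 1000000 UMIs of the class in that library (CPM), with an exact Poisson 95% interval in brackets where given. A comparison is a log2 ratio of CPM + 10. With 1 library per group no test was possible, and intervals cover counting error only. A difference counts as past 1.5-fold by size alone, in classes with at least 50 cells in both libraries and for genes with at least 50 UMIs in 1 of them.

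The genes lie on 5 chromosomes of the mm10 (GRCm38) assembly. Socs1 is at chr16:10782240-10785536, Socs2 at chr10:95385362-95417180, Socs3 at chr11:117966079-117970047 and Cish at chr9:107296026-107302784. Stat3 (chr11:100885098-100939540) and Stat5a (chr11:100859351-100885169) lie tail to tail on opposite strands and share 72 bases. Irf1 is at chr11:53770014-53778374 and Irf8 at chr8:120736358-120756694.

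Promoter windows show the letters through which STATs and IRFs are known to read such genes. RefSeq windows of 300 bases (GRCm38.p6, from 250 bases before the start to 50 after it) existed for 7 of the 8 genes, 10 windows in all. The search covered both strands for the STAT motif GAS (TTCNNNGAA, which reads the same on either strand) and an IRF motif (GAAANNGAA). A window with TTCNNNGAA occurred in 4 of the 10 against 8.3% of all 32841 windows of this length, and GAAANNGAA in 1 of the 10 against 8.56%. The 5 windows with a match are printed 5′ to 3′ on the gene's strand, with the matching letters in capitals. They are shown because they belong to feedback genes and interferon regulatory factors described below, and a match is a description of letters and no evidence that a factor binds.

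Socs1, chr16:10785487-10785786, minus strand: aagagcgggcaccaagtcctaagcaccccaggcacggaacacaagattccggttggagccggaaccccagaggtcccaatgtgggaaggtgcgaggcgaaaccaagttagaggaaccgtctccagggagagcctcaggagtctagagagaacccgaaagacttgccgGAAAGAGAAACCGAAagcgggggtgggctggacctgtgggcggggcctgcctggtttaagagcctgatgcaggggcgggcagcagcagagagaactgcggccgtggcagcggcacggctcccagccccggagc

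Socs3, chr11:117969317-117969616, minus strand: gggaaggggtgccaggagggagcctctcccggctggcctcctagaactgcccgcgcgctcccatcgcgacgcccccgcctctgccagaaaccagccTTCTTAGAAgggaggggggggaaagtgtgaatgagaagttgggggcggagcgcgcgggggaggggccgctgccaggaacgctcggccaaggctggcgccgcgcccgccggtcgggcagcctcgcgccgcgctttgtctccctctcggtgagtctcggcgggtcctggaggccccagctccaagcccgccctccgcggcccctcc

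Cish, chr9:107296409-107296708, plus strand: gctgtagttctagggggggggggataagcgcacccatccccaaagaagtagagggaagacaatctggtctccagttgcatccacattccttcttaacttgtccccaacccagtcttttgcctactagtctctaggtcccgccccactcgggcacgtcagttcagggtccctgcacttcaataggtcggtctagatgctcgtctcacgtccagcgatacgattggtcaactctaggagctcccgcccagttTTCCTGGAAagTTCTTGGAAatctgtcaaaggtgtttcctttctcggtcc

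Irf1, chr11:53769764-53770063, plus strand: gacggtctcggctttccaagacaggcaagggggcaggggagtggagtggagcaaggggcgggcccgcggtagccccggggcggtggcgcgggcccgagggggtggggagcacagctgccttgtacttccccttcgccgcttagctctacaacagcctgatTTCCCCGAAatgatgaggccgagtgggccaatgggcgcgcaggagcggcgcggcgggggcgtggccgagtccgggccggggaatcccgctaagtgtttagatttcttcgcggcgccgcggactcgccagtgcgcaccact

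Irf8, chr8:120736108-120736407, plus strand: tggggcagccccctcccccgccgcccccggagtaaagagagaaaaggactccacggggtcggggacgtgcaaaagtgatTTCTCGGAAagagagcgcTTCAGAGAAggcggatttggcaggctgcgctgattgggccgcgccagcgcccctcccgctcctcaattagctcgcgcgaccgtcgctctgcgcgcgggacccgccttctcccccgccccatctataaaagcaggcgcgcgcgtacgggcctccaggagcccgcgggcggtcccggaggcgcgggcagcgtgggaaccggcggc

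The Socs1 window held the IRF letters in 2 overlapping copies that began 83 and 77 bases before the start. The single GAS match of Socs3 began 154 bases before its start and that of Irf1 began 90 bases before. Cish carried a pair of GAS matches at the start itself and 11 bases after it, and Irf8 a pair that began 171 and 153 bases before. Each start is that of the RefSeq window. For Socs3 and Cish the whole window lies inside the gene span given above, so its start is not the end of that span. The windows of Stat3 and Stat5a and the second windows of Irf1 and Irf8 had no match to either motif.

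Each gene had its own distribution over the cell classes, shown in the plot of levels by class and library. Levels are compared within a gene only.

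**Figure D1:**
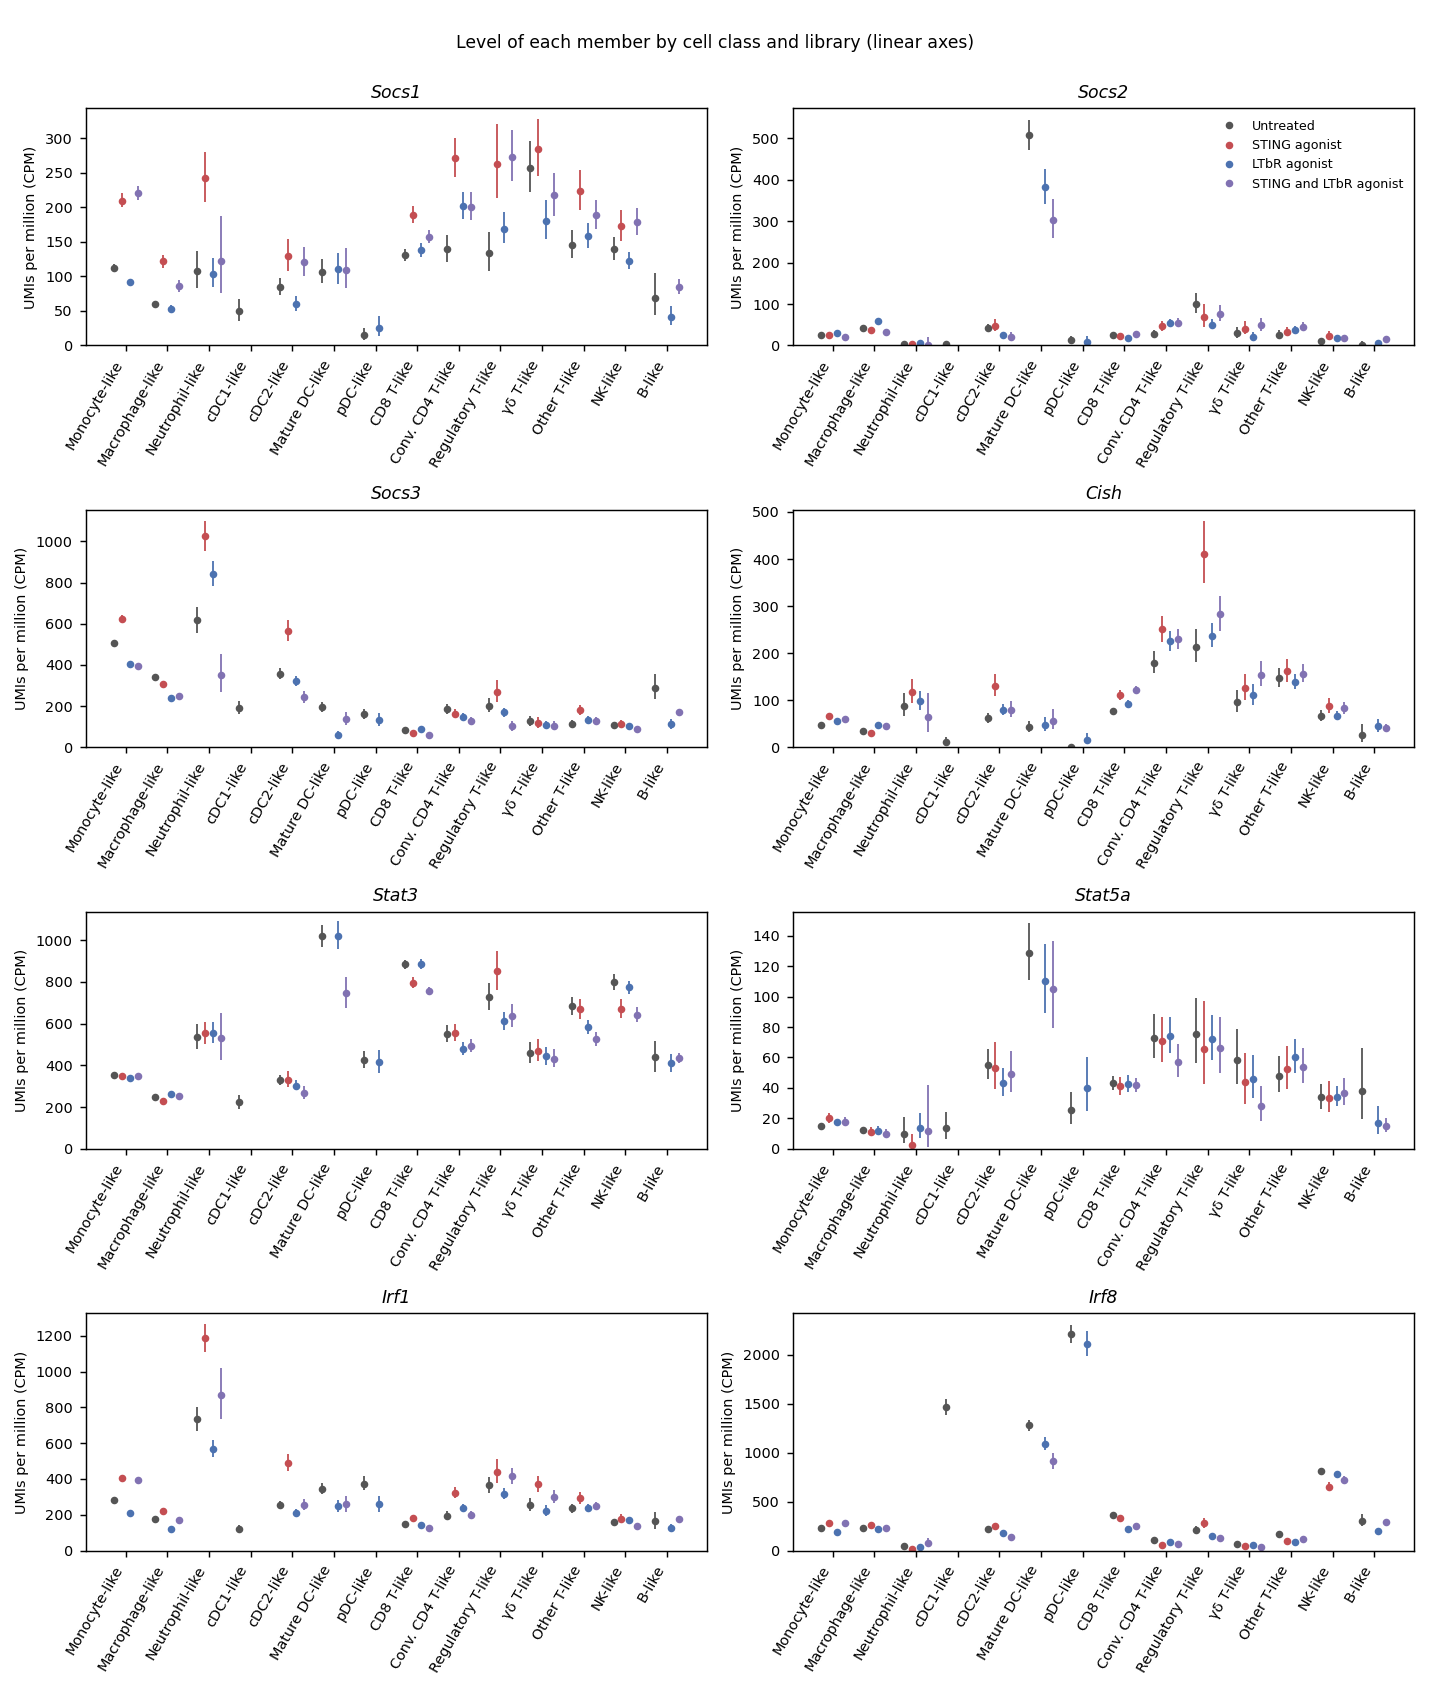
Level of each of the 8 genes (CPM, linear axes from 0) in 14 cell classes. Each point is 1 library with its exact Poisson 95% interval, and libraries with under 50 cells of a class are left out. Socs2 stands out in Mature DC-like cells, Irf8 in pDC-like and cDC1-like cells, Socs3 and Irf1 in Neutrophil-like cells, and Cish in Regulatory and Conventional CD4 T-like cells.

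Socs2 was concentrated in Mature DC-like cells, the activated dendritic cells that carry Ccr7. There its level was 508 CPM (471 to 546) in the Untreated library, 382 with LTbR agonist and 304 with the combination, and 337 in the STING agonist library, which held 48 cells. The next class, Regulatory T-like, lay between 50.2 and 100 CPM, so the ranges over libraries did not overlap. In Neutrophil-like cells Socs2 had between 0 and 5 UMIs per library. At an equal depth of 1000 UMIs per cell, 38.5% of Untreated Mature DC-like cells had a Socs2 UMI against 0.518% of Untreated Neutrophil-like cells, whose median depths before thinning were 9228 and 2233 UMIs.

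Irf8 separated its highest classes in clear steps. The 2 libraries with at least 50 pDC-like cells had 2212 CPM (Untreated) and 2114 CPM (LTbR agonist), and cDC1-like cells, of which 53 in the Untreated library, had 1465 CPM. Mature DC-like cells followed with 912 to 1279 CPM and NK-like cells with 653 to 809 CPM, and none of these 4 classes overlapped its neighbour. CD8 T-like cells came next at 215 to 360 CPM and overlapped B-like, Monocyte-like and Macrophage-like cells. Neutrophil-like cells were lowest at 14.6 to 75.9 CPM, and after thinning 0.321% to 1.89% of them had an Irf8 UMI against 80.7% to 85.7% of pDC-like cells.

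Socs3 and Irf1 were highest in Neutrophil-like cells. Socs3 had 617 CPM there in the Untreated library, 1025 with STING agonist, 843 with LTbR agonist and 350 with the combination. Monocyte-like cells (394 to 625 CPM) and cDC2-like cells (244 to 566 CPM) overlapped that range, and CD8 T-like cells were lowest (60.7 to 86.6 CPM). Irf1 ranged from 568 to 1185 CPM in Neutrophil-like cells, above its range in every other class, of which Regulatory T-like cells came next at 315 to 439 CPM.

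Cish was highest in T-like cells. Its order ran from Regulatory T-like (214 to 410 CPM) and Conventional CD4 T-like (180 to 251 CPM) to Other T-like (139 to 162 CPM), Gamma-delta T-like and CD8 T-like cells (77.5 to 122 CPM), and among these only the step from Conventional CD4 to Other T-like separated neighbours without overlap. In pDC-like cells Cish had 1 UMI in 98 Untreated cells. Socs1 ran without a clear break from 181 to 284 CPM in Gamma-delta T-like cells to 41.8 to 85.1 CPM in B-like cells, and each class down to cDC1-like cells overlapped the next. Levels in pDC-like cells were the lowest of all (14.7 and 24.6 CPM).

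The STATs differed more between classes than between libraries. Stat3 reached 747 to 1022 CPM in Mature DC-like cells and 757 to 885 CPM in CD8 T-like cells, against 341 to 352 CPM in Monocyte-like and 230 to 263 CPM in Macrophage-like cells. Stat5a was highest in Mature DC-like cells (105 to 128 CPM), without overlap with the next class, Regulatory T-like cells (65.8 to 75.6 CPM). It had at most 13 UMIs in any library of Neutrophil-like cells. The deposited feature counts do not state how reads in the 72 shared bases of Stat3 and Stat5a were assigned.

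The plot of shares at equal depth gives the same picture for Irf8, Socs2 and Cish when every cell is thinned to 1000 UMIs.

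**Figure D2:**
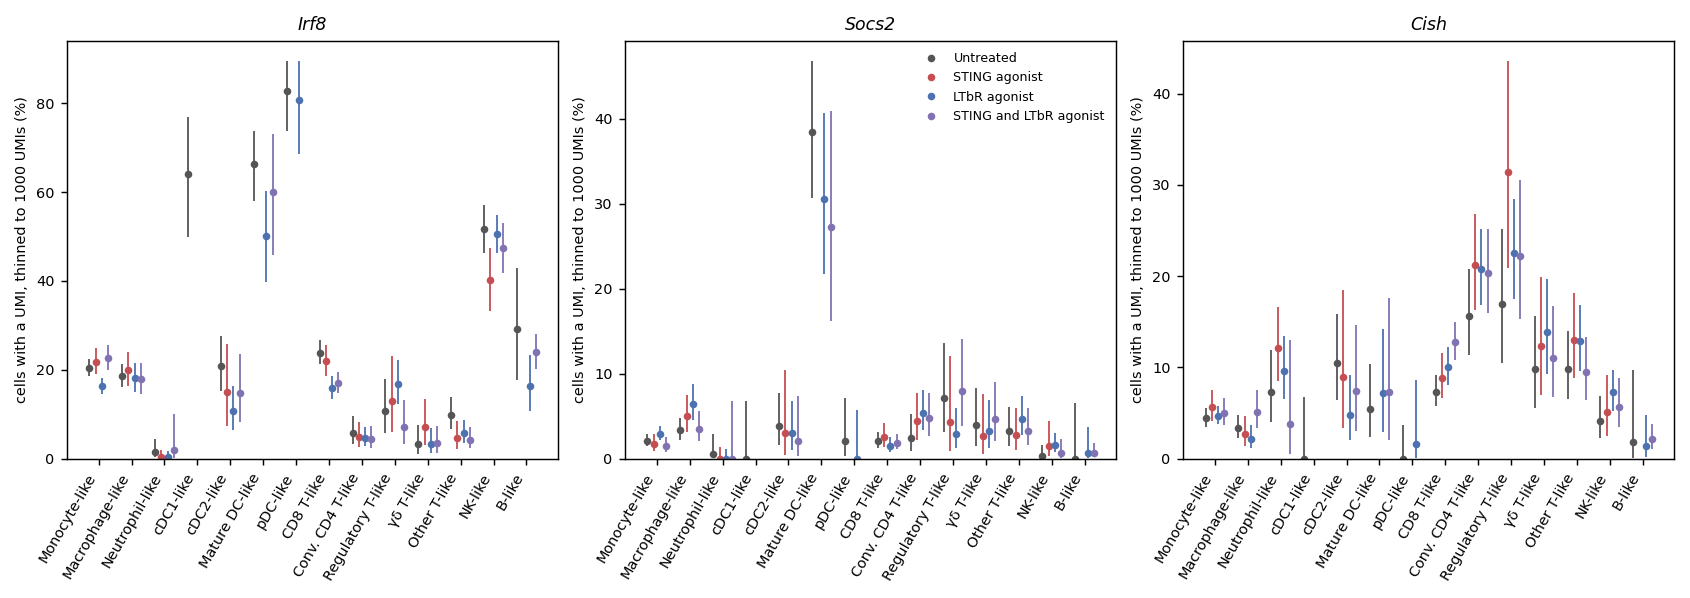
Percent of cells with a UMI of Irf8, Socs2 and Cish after each cell was thinned to 1000 UMIs, by class. Points are libraries with at least 50 cells of the class and bars are exact binomial 95% intervals. Irf8 reaches over 80% only in pDC-like cells, Socs2 exceeds 25% in Mature DC-like cells alone, and Cish is highest in Regulatory T-like cells of the STING agonist library at 31.4%.

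Each agonist library was then compared with the Untreated library, which the 3 comparisons share. With STING agonist, 72 pairs of gene and class could be compared in 10 classes. Of these, 14 were past 1.5-fold higher and 2 lower, where 1.84% of all 56015 gene-class pairs were past that fold higher and 3.02% lower. Their median log2 ratio was 0.22 against 0.005 for all pairs. With LTbR agonist, 1 of 91 pairs was higher and 5 lower (2.26% and 2.36% of 72084 pairs of all genes), with a median of -0.07 against 0.00. With the combination, 5 of 87 pairs were higher and 7 lower (3.07% and 4.25% of 68793), with a median of -0.04 against -0.007. The map of log2 ratios shows where they fall.

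**Figure D3:**
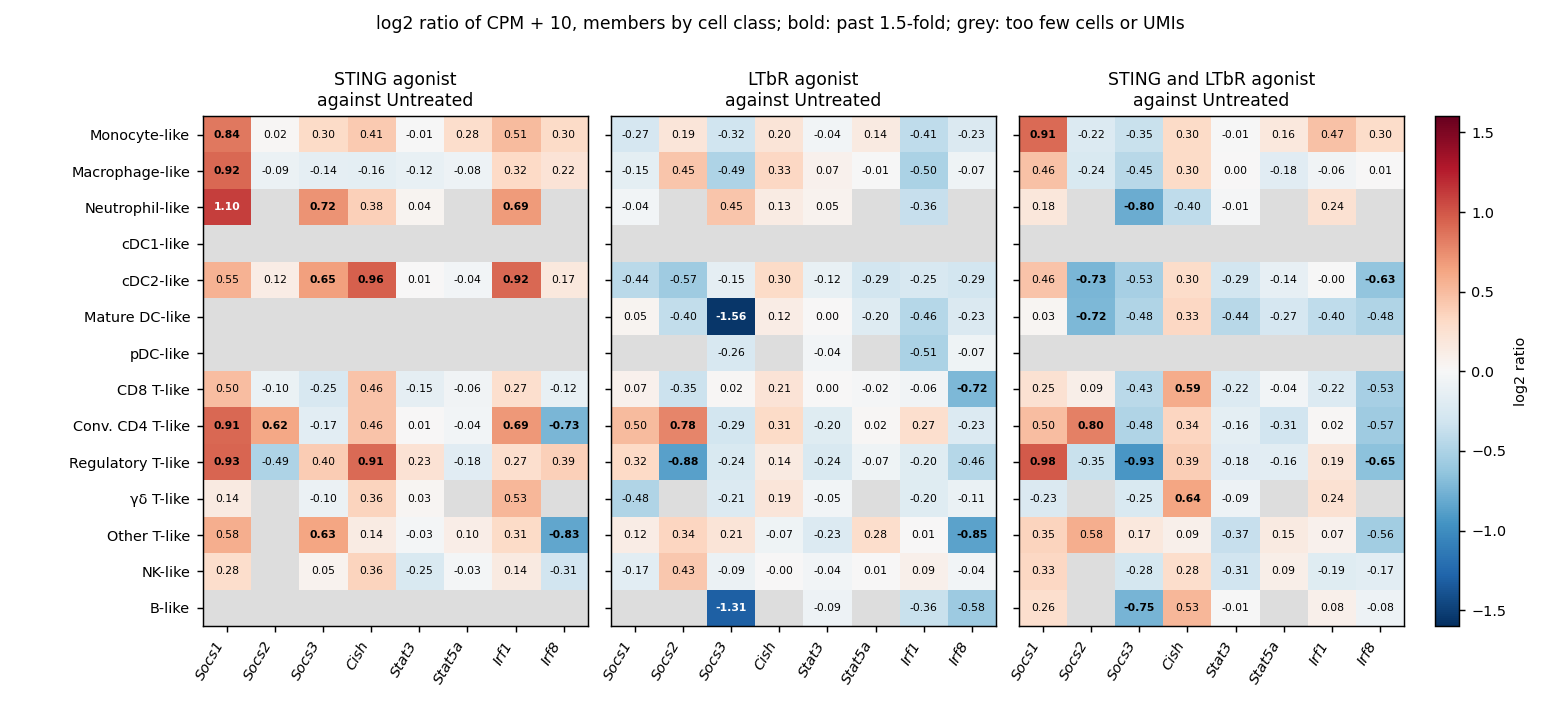
Log2 ratio of CPM + 10 against the Untreated library for each of the 8 genes (columns) in each class (rows), for STING agonist, LTbR agonist and the combination. Bold values are past 1.5-fold and grey cells had too few cells or UMIs. The Socs1 column is above 0 in all 10 classes compared for STING agonist and in 11 of 12 for the combination, and the Irf8 column is below 0 in all 12 for LTbR agonist.

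Socs1, the interferon feedback gene, was higher with STING agonist in 10 of 10 classes, past 1.5-fold in 5, with a median log2 ratio of 0.71. In Monocyte-like cells its level was 112 CPM (107 to 118) in the Untreated library, 210 (200 to 220) with STING agonist, 91.3 (86.5 to 96.3) with LTbR agonist and 221 (210 to 231) with the combination. The 2 libraries that received STING agonist were thus high and the other 2 low, with no overlap of intervals, and the log2 ratios to Untreated were 0.84 (0.71 to 0.97) and 0.91 (0.79 to 1.04). Against LTbR agonist alone the combination differed by 1.19 (1.05 to 1.32). In Macrophage-like cells the levels in the same order were 59.8, 122, 52.8 and 86.3 CPM, a log2 ratio of 0.92 (0.71 to 1.12) for STING agonist and 0.46 (0.23 to 0.70) for the combination. The libraries drew these cells from different clusters, since the cluster led by Retnla, Chil3 and Ccl8 held 75, 39, 118 and 212 of them. In that cluster Socs1 had 24.5 CPM in the Untreated library, 67 with LTbR agonist and 59.25 with the combination. Both libraries with LTbR agonist were above Untreated there, and the 39 cells with STING agonist were too few for a level. In the cluster led by Ifitm1, Ltb4r1 and Gbp2 Socs1 had 58.2, 127, 59 and 132 CPM, and with clusters held equal the ratio for the combination was 0.96.

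In Neutrophil-like cells Socs1 had 107 CPM in the Untreated library, 242 with STING agonist, 104 with LTbR agonist and 123 with the combination. Only the STING agonist library was high (log2 ratio 1.10, 0.58 to 1.64). The combination held 61 such cells with 21 Socs1 UMIs, and its interval against Untreated ran from -0.77 to 1.08. In cDC2-like cells Socs1 was again higher in both libraries with STING agonist (85.1, 129, 60.3 and 121 CPM), though neither was past 1.5-fold against Untreated.

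With STING agonist Socs1 was above Untreated in every T-like class as well, least in Gamma-delta T-like cells (log2 ratio 0.14, -0.26 to 0.54). Conventional CD4 T-like cells had 139 CPM in the Untreated library, 271 with STING agonist, 202 with LTbR agonist and 201 with the combination. Untreated was the lowest of the 4, and STING agonist stood at a log2 ratio of 0.91 (0.57 to 1.25). Regulatory T-like cells, which carry Foxp3, had 134, 263, 169 and 273 CPM, giving 0.93 (0.36 to 1.49) for STING agonist and 0.98 (0.51 to 1.45) for the combination. In these Regulatory T-like cells the share of thinned cells with a UMI was 12.5%, 22.9%, 21.3% and 27% in that order. CD8 T-like cells were closer together (131, 189, 138 and 158 CPM), and in Gamma-delta T-like cells, where Socs1 was highest, the combination was below Untreated (256 and 217 CPM). NK-like cells had 140, 173, 123 and 179 CPM. The Untreated Conventional CD4 T-like cells also carried the most macrophage markers, whose 9 genes summed to 580, 158, 308 and 210 CPM with Adgre1 at 0 with STING agonist and Ms4a7 at 0 with the combination, and the part of these in the class's values was not tested.

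Within subgroups of Monocyte-like cells Socs1 was again above Untreated in both libraries with STING agonist. In the Leiden cluster led by Tgm2, Timp1 and Gbp2 it had 133 CPM in the Untreated library, 262 with STING agonist, 135 with LTbR agonist and 301 with the combination. In the cluster led by Spp1, Cxcl2 and Inhba the values were 102, 163, 78.8 and 194 CPM, and in the cluster led by Stxbp6, Gm9733 and Add3 they were 181, 247, 88.4 and 203 CPM. With the share of each cluster held equal between libraries, the log2 ratio in Monocyte-like cells was 0.81 for STING agonist and 0.89 for the combination.

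Irf1 moved in the same direction as Socs1 with STING agonist, higher in 10 of 10 classes with a median log2 ratio of 0.42, and past 1.5-fold in 3. In Monocyte-like cells it had 280 CPM (272 to 289) in the Untreated library, 403 (389 to 417) with STING agonist, 209 (202 to 216) with LTbR agonist and 392 (378 to 406) with the combination. As for Socs1, the libraries with STING agonist were the high ones and LTbR agonist alone the lowest, and the combination stood 0.87 (0.78 to 0.97) above LTbR agonist alone. In Neutrophil-like cells Irf1 had 734, 1185, 568 and 870 CPM in the same order, a log2 ratio of 0.69 (0.46 to 0.91) for STING agonist. In cDC2-like cells it had 255, 491, 212 and 254 CPM, so that STING agonist alone was high (0.92, 0.67 to 1.17) and the combination was level with Untreated. Conventional CD4 T-like cells had 195, 321, 236 and 198 CPM, again with STING agonist alone as the high library. With LTbR agonist alone Irf1 was below Untreated in 10 of 13 classes, with a lowest log2 ratio of -0.51 in pDC-like cells, and none was past 1.5-fold.

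The plot of myeloid levels sets Socs1, Irf1 and Socs3 beside 2 gene lists.

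**Figure D4:**
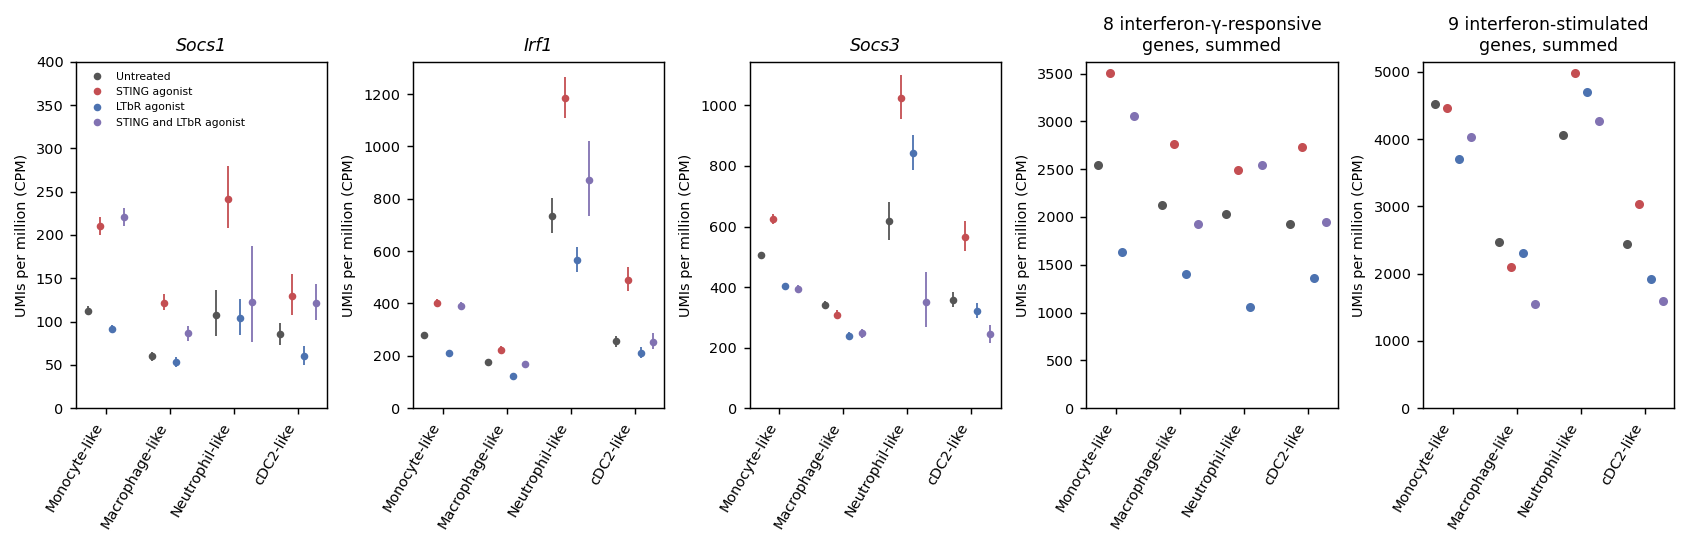
CPM of Socs1, Irf1 and Socs3 in 4 myeloid classes (points are libraries, bars exact Poisson 95% intervals, linear axes from 0), with the summed CPM of 8 interferon-γ-responsive and 9 interferon-stimulated genes in the same cells, drawn without intervals. In Monocyte-like cells Socs1, Irf1 and the interferon-γ-responsive sum are higher in the 2 libraries with STING agonist, and the interferon-stimulated sum is not. In Macrophage-like cells the interferon-γ-responsive sum is below Untreated with the combination.

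The 8 genes known to respond to interferon-γ summed to 2539 CPM in Untreated Monocyte-like cells, 3502 with STING agonist, 1634 with LTbR agonist and 3060 with the combination. The order of the libraries was that of Irf1. The 9 interferon-stimulated genes summed to 4524, 4471, 3710 and 4032 CPM, highest in the Untreated library. In other classes the interferon-γ-responsive sum did not always follow Socs1. In Macrophage-like cells it was 2126, 2768, 1402 and 1927 CPM, with the combination below Untreated. With STING agonist it was 1277 against 1252 CPM in Conventional CD4 T-like and 857 against 883 CPM in CD8 T-like cells. In Neutrophil-like and cDC2-like cells both libraries with STING agonist were above Untreated. Genes that respond to tissue dissociation (immediate-early and heat shock genes) were also higher with STING agonist in cDC2-like cells, where 8 of 11 were past 1.5-fold with a median log2 ratio of 0.71, in Conventional CD4 T-like cells (7 of 12, median 0.63), Other T-like cells (6 of 12, 0.66), NK-like cells (5 of 12, 0.52) and Gamma-delta T-like cells (4 of 8, 0.58). In Regulatory T-like cells 3 of 10 were higher and 1 lower (median 0.38), and in CD8 T-like cells 2 of 12 were higher (0.37). In Monocyte-like cells 3 of 12 were (0.26), in Neutrophil-like cells 1 of 12 (0.185) and in Macrophage-like cells 1 of 12 (0.14). Over all gene-class pairs 1.84% were past that fold higher with STING agonist. The part of the dissociation genes in the levels of the 8 genes with STING agonist was not tested.

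Socs3 followed another order. In Monocyte-like cells it had 506 CPM (494 to 517) in the Untreated library, 625 (608 to 643) with STING agonist, 403 (393 to 413) with LTbR agonist and 394 (380 to 408) with the combination. STING agonist alone was the highest, and the combination lay with LTbR agonist, at a log2 ratio of -0.65 (-0.74 to -0.56) to STING agonist. In cDC2-like cells the levels were 357, 566, 321 and 244 CPM, and the combination was 1.18 below STING agonist on the log2 scale (interval -1.47 to -0.89). Over the 12 classes compared, the combination was below Untreated in 11, with a median of -0.47 and 3 past 1.5-fold.

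In Neutrophil-like cells, where SOCS3 is known to restrain G-CSF signalling, STING agonist stood at a log2 ratio of 0.72 (0.48 to 0.97) to Untreated, LTbR agonist at 0.45 (0.20 to 0.69) and the combination at -0.80 (-1.32 to -0.30). The combination value rests on 60 UMIs, of which 71.7% came from 10 cells. Macrophage markers in these cells summed to 729 CPM in the Untreated library, 238 with STING agonist, 444 with LTbR agonist and 1378 with the combination. All 9 were detected except Trem2 and Ms4a7 at 0 in the combination, and their part in the Socs3 difference was not tested.

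Mature DC-like cells had the widest Socs3 difference with LTbR agonist, the antibody to a receptor of the tumour necrosis factor family. The levels were 195 CPM (173 to 220) in the Untreated library, 134 (103 to 172) with STING agonist in 48 cells, 59.6 (44.6 to 78) with LTbR agonist and 137 (107 to 172) with the combination. LTbR agonist alone was low, at a log2 ratio of -1.56 (-2.07 to -1.06), and the combination lay 1.08 (0.42 to 1.74) above it. In the same cells 10 of 11 dissociation genes were past 1.5-fold lower with LTbR agonist, as were 7 of 8 interferon-γ-responsive and 5 of 8 interferon-stimulated genes. With the combination 2 of 11 dissociation genes, 6 of 8 interferon-γ-responsive and 8 of 8 interferon-stimulated genes were. Over all gene-class pairs 2.36% were past that fold lower with LTbR agonist and 4.25% with the combination. The 8 neutrophil markers in these cells summed to 24.9, 51.8, 259 and 13.1 CPM (5, 4, 5 and 3 detected), with Cxcr2 and Mmp9 at 0 in every library. The part of these genes in the Socs3 difference was not tested. At equal depth 16.9%, 10.4%, 4.08% and 5.45% of the cells had a Socs3 UMI, so the shares set both libraries with LTbR agonist low and no order is drawn between those 2.

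In Regulatory T-like cells Socs3 had 201, 268, 168 and 101 CPM, so that the combination was lowest (-0.93, -1.45 to -0.40), but with the clusters held equal this ratio was -0.23. In B-like cells Socs3 had 290 CPM in 55 Untreated cells, 111 with LTbR agonist and 169 with the combination. The 10 cells richest in Socs3 gave 83.7% of the Untreated UMIs, and the thinned shares were 14.6%, 11.6% and 12.8%, with intervals that overlap. Other T-like cells had 113, 180, 132 and 128 CPM, and the ratio of 0.63 for STING agonist was 0.01 when classes were taken from clusters.

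Cish, the gene of CIS, which acts on receptors that use STAT5, was above Untreated in 9 of 10 classes with STING agonist, 9 of 11 with LTbR agonist and 11 of 12 with the combination. Regulatory T-like cells had 214 CPM (181 to 251) in the Untreated library, 410 (348 to 480) with STING agonist, 237 (212 to 265) with LTbR agonist and 283 (248 to 322) with the combination. STING agonist alone was high, at 0.91 (0.46 to 1.36). CD8 T-like cells had 77.5, 110, 91.5 and 122 CPM, and the combination was past 1.5-fold at 0.59 (0.40 to 0.78). Gamma-delta T-like cells had 95.7, 125, 110 and 154 CPM, with the combination again the highest (0.64, 0.10 to 1.18), although its thinned share of 11% was below the 13.9% with LTbR agonist. In cDC2-like cells the levels were 62.3, 130, 79.3 and 78.8 CPM, a ratio of 0.96 (0.50 to 1.41) for STING agonist. The thinned shares there were 10.4%, 8.96%, 4.76% and 7.37%, which do not follow that order, so no order is drawn from them.

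Socs2 in Mature DC-like cells was lower with the combination than in the Untreated library at -0.72 (-1.05 to -0.40), and LTbR agonist stood at -0.40. The thinned shares (38.5% Untreated, 30.6% LTbR agonist, 27.3% combination) had the same order, with overlapping intervals. In Conventional CD4 T-like cells Socs2 was low, with 27 CPM in the Untreated library, 46.7 with STING agonist, 53.5 with LTbR agonist and 54.6 with the combination. Every agonist library was above Untreated there, at log2 ratios of 0.62, 0.78 and 0.80, of which the first has an interval that reaches -0.04. In cDC2-like cells the levels were 42.3, 46.7, 25.1 and 21.5 CPM. In Macrophage-like cells LTbR agonist alone was highest (41.3, 38.2, 60 and 33.4 CPM).

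In Regulatory T-like cells the Untreated library had the highest Socs2, at 100 CPM against 68.4, 50.2 and 76.3 CPM. The 7 markers of Mature DC-like cells, where Socs2 is highest, summed to 634 CPM in these Untreated Regulatory T-like cells, 60.5 with STING agonist, 91.3 with LTbR agonist and 36.9 with the combination. In the Untreated library 6 of the 7 were detected, with Apol7c at 0, and in the combination 2 were, with Fscn1, Ccl22, Cacnb3, Nudt17 and Apol7c at 0. The 8 neutrophil markers summed to 81.5, 31.6, 475 and 25.8 CPM in the same class (7, 6, 8 and 3 detected), with S100a8 and S100a9 at 0 in the combination. The part of both in the values of the 8 genes in this class was not tested.

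Irf8 was lower with LTbR agonist in 12 of 12 classes, past 1.5-fold in 2, with a median log2 ratio of -0.23. The difference was best measured in CD8 T-like cells, with 360 CPM (347 to 374) in the Untreated library, 331 (314 to 348) with STING agonist, 215 (204 to 228) with LTbR agonist and 246 (235 to 258) with the combination. Both libraries that received LTbR agonist were low, at -0.72 (-0.85 to -0.59) and -0.53 (-0.65 to -0.42), and the thinned shares followed (23.8%, 21.9%, 15.8% and 17.1%). In the largest cluster of CD8 T-like cells, led by granzyme and chemokine genes (Gzmf, Gzmd, Ccl3, Ccl4), the levels were 412, 382, 253 and 277 CPM, and in the cluster led by Tcf7 and S1pr1, genes of less differentiated T cells, they were 18.4, 29.1, 41.3 and 43.7 CPM, with both LTbR agonist libraries above Untreated. With clusters held equal the ratio for LTbR agonist was -0.62. The 9 macrophage markers, all detected in every library, summed to 387, 155, 147 and 106 CPM in CD8 T-like cells, and their part was not tested.

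Other T-like cells had 173 CPM of Irf8 in the Untreated library, 93.2 with STING agonist, 91.2 with LTbR agonist and 114 with the combination, so that Untreated alone was high. The 5 cDC1 markers, of a class with high Irf8, summed to 25, 3.73, 2.07 and 2.35 CPM in these cells (5, 3, 3 and 3 detected, with Xcr1 at 0 with either agonist alone), and their part was not tested. Conventional CD4 T-like cells had 104, 58.8, 87.9 and 67.2 CPM, with STING agonist lowest (-0.73, -1.24 to -0.23). The 10 Other T-like cells richest in Irf8 held between 40.3% and 65% of its UMIs in each library. Among the classes where Irf8 was highest, no difference from Untreated was past 1.5-fold where at least 50 cells allowed a comparison. The cDC1-like cells (53, 14, 31 and 8 per library) were not compared at all. Mature DC-like cells with STING agonist (48 cells) and pDC-like cells with STING agonist or the combination were not compared either. NK-like cells had 809, 653, 784 and 720 CPM, Mature DC-like cells 1279, 1010, 1092 and 912 CPM, and pDC-like cells 2212, 2399, 2114 and 2119 CPM, where 28 and 27 cells were behind the second and last value.

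Monocyte-like cells had Irf8 at 230, 287, 195 and 285 CPM, the order that Irf1 had in these cells. In cDC2-like cells Irf8 was lowest with the combination (220, 248, 177 and 139 CPM), at -0.63 (-0.97 to -0.29) to Untreated. Among these cDC2-like cells the 5 pDC markers summed to 58.2, 26.1, 72.8 and 17.9 CPM (5, 3, 4 and 2 detected, Siglech at 0 with the combination). The 5 cDC1 markers summed to 43.2, 39.1, 34.6 and 24.2 CPM (4, 5, 5 and 4 detected, Xcr1 at 0 in the Untreated library and with the combination). The 9 macrophage markers summed to 219, 78.2, 573 and 429 CPM (8, 8, 9 and 9 detected). Their part in the values of the 8 genes in this class was not tested. In Regulatory T-like cells it had 211, 279, 150 and 130 CPM, and with clusters held equal the ratio for the combination turned from -0.65 to 0.10.

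Stat3 and Stat5a had no pair past 1.5-fold in any comparison with Untreated. Stat3 in Monocyte-like cells had 352, 349, 341 and 349 CPM, and over classes its log2 ratio lay between -0.25 and 0.23 for STING agonist, -0.25 and 0.07 for LTbR agonist, and -0.44 and 0.00 for the combination. The lowest ratios were those of the combination in Mature DC-like cells (1020 CPM in the Untreated library and 747 with the combination) and Other T-like cells (684 and 526 CPM). In CD8 T-like cells both libraries with STING agonist were lower (883, 795, 885 and 757 CPM). Stat5a in CD8 T-like cells had 43.2, 41.1, 42.6 and 41.8 CPM, and its ratios to Untreated lay between -0.31 and 0.28 over all classes compared.

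Over the 49 sums of class and library with at least 50 cells, the profiles of the genes were compared by Pearson correlation of log2(CPM + 10), as a description, since the sums share libraries and depth. Socs1 was most like Cish (r = 0.81), and Socs3 was like Irf1 (0.60) and unlike Stat5a (-0.53). Socs2 was like Stat5a (0.67), both being highest in Mature DC-like cells. Irf8 ran against Cish (-0.63) and Socs1 (-0.55). Among all 10065 genes of at least 20 CPM in some class, the most alike were Cish, Zc3hav1 and Prkar1a for Socs1, Hsf2, Uap1 and Rap2b for Socs2 (r = 0.90 for Hsf2), and Gm40645, Oas2 and Ubtd1 for Socs3 (0.94 for Gm40645). For Cish they were Zc3hav1, Pak2 and Ttc39c (0.90 for Zc3hav1), for Irf1 Csrnp1, the NF-κB inhibitor gene Nfkbia and the gene model Gm26885 (0.80 for Csrnp1), and for Irf8 Smim24, Acsf2 and Nudt14 (0.74 for Smim24). Stat3 was most like Parp4, Rhof and Dock9 (0.82 for Parp4), and Stat5a most like Aebp2, Sdhaf1 and Pkp3 (0.87 for Aebp2).

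The 82 other genes of the pathway were counted in the same way. With STING agonist 30 of 512 pairs were past 1.5-fold higher and 35 lower, with LTbR agonist 20 and 46 of 656, and with the combination 28 and 71 of 637. Over all genes the shares higher and lower were 1.84% and 3.02% with STING agonist, 2.26% and 2.36% with LTbR agonist, and 3.07% and 4.25% with the combination, and several of the lists that follow lie near them. The pathway medians were 0.03, -0.08 and -0.09. The 14 other inhibitors (Socs4 to Socs7, the PIAS family, phosphatases, Sh2b3 and Usp18) had 2 higher and 1 lower pair of 90 with STING agonist, and the 9 other STATs and JAKs 0 and 3 of 82. Among 22 receptors 6 pairs were higher and 13 lower of 160, and among 13 known STAT targets 12 and 13 of 105. For LTbR agonist the STAT targets had 10 higher and 22 lower of 133, and for the combination 8 and 24 of 129.

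The pathway pairs with the widest ratios were ligands, receptors, STAT targets and Irf7. Il13, a ligand that signals through STAT6, had 19 CPM in Untreated Conventional CD4 T-like cells, 18.1 with STING agonist, 352 with LTbR agonist and 121 with the combination. Both libraries with LTbR agonist were high, at log2 ratios of 3.64 and 2.17, and in Other T-like cells the combination was the high one (122 CPM against 10.7 in the Untreated library). Cxcl10, a chemokine induced by interferons, was higher in both libraries with STING agonist in Regulatory T-like cells (33.4, 195, 92.1 and 188 CPM), with the combination in NK-like cells (30.6 and 229 CPM) and with LTbR agonist in Other T-like cells (29.3 and 231 CPM), and lower with STING agonist in Conventional CD4 T-like cells (177 and 52 CPM). In B-like cells it had 485 CPM in the Untreated library, 91.6 with LTbR agonist and 86.1 with the combination. Cxcl10 is also a leading gene of Monocyte-like cells, and whether such RNA reached other classes was not tested.

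Il2ra, the α chain of the interleukin-2 receptor, had 133 CPM in Untreated Neutrophil-like cells and 9.26 and 7.41 with STING agonist and LTbR agonist, from 83, 7 and 7 UMIs. Bcl2, which blocks cell death, had 92.9 CPM there in the Untreated library, 23.8 with STING agonist and 5.84 with the combination, the last from 1 UMI. Cxcl9 in Neutrophil-like cells had 88.1 CPM in the Untreated library and 26.5 with STING agonist, and in Mature DC-like cells 236 CPM in the Untreated library and 45 with LTbR agonist. In Neutrophil-like cells the macrophage markers (729, 238, 444 and 1378 CPM, given with Socs3) and the 5 T markers (78.5, 46.3, 81.5 and 140 CPM, with 5, 4, 5 and 4 detected) also differed between libraries, and their part was not tested. Irf7 in Mature DC-like cells stood at 173 and 46.1 CPM for the same libraries, a log2 ratio of -1.70. Osm, a ligand of the gp130 family, had 102 CPM in Untreated Conventional CD4 T-like cells and 25.6 with STING agonist, where 9 macrophage markers summed to 580 and 158 CPM. Their part was not tested.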

How the data were processed

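The deposited matrix holds raw UMI counts per gene and barcode, made by the authors with Cell Ranger 7.1.0 against mm10 from 10x 5′ libraries, and it was used unchanged. The suffix of each barcode gave the library and the labels its group. Barcodes with 300 to 5000 genes and at most 6% mitochondrial UMIs were kept, following the study's limits. Library totals over all barcodes were 60770280 UMIs (Untreated), 32529174 (STING agonist), 56877525 (LTbR agonist) and 42710099 (combination). A cell took a class when it had a UMI in at least 40% of the class's markers and led the next class by 10%, with T-like cells then split by Cd4, Cd8a, Cd8b1, Foxp3 and γδ genes. UMIs were summed per class and library, and ratios were taken after adding 10 CPM, with bounds from the 2 exact Poisson 95% intervals. A difference was called by size (1.5-fold) and not by a test, with 1 library per group.

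Doublets were scored with Scrublet and kept, and an alternative left out cells scored 0.2 or more (2.03% to 3.35% per library). Leiden clusters came from 2000 variable genes, 30 components and 20 neighbours in scanpy 1.11.5. Intervals cover counting error only. The ratio calculation was tested on simulated data. The members and lists were chosen with earlier results of these data known. All 8 genes are named in every class, the other pathway genes as counts with the 6 widest pairs per comparison, and the 3 genes most like each member. The ratios of the 8 genes to Untreated were recomputed, where counts allowed, under 10 other settings (the value added to CPM, the minimum of UMIs, the gate, the quality limits, classes from clusters, the mean over cells, thinning, centring and doublets), and 1 more, which holds the make-up of clusters equal between libraries, was added after seeing the data.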

Additional observations from a re-analysis of the deposited data

Results flagged for a closer look

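Socs2 differed from Untreated in opposite directions in different classes. With LTbR agonist its log2 ratio was 0.78 in Conventional CD4 T-like cells and -0.88 in Regulatory T-like cells. With the combination it was 0.80 in Conventional CD4 T-like cells and -0.73 in cDC2-like cells. The differences between the classes were not tested, since each group has 1 library. The values rest on 24 to 112 UMIs per class and library. When classes were taken from Leiden clusters, the Regulatory T-like value for LTbR agonist was -0.33 and the cDC2-like value for the combination was -0.36, and neither was past 1.5-fold. The Conventional CD4 T-like values were then 0.89 for both libraries.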

How the results depend on the processing

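The comparisons with Untreated called 16 pairs of gene and class with STING agonist, 6 with LTbR agonist and 12 with the combination. The count for STING agonist was 8 when cells were thinned to 1000 UMIs. The count for LTbR agonist was 11 with no minimum of UMIs and 10 with the mean of CPM per cell. The count for the combination was 6 after adding 50 CPM and 19 with classes from Leiden clusters. Thinning left fewer UMIs, so 16 of the 34 called pairs could be recomputed, and for the other settings the cause was not tested. Over all 11 alternatives, 310 of 351 recomputed values were still past 1.5-fold and 1 reversed. That one was Irf8 in Regulatory T-like cells with the combination, at 0.10 with the make-up of clusters held equal. Socs1 in Monocyte-like cells with STING agonist ranged from 0.68 to 0.89 and was past 1.5-fold in 11 of 11. Classes with few cells could not be compared. With 1 library of pooled tumours per group, differences between mice, libraries and treatments cannot be told apart.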
